A study of Mus musculus with 8 samples.

Results

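The genes described here encode the enzymes that make sterols and fatty acids, together with the SREBP transcription factors that control them and the proteins that hold those factors in check. They were taken from a list of 34 gene symbols, of which 33 matched a probe set that carries a single symbol, out of 18782 genes measured. Acat2 matched no such probe set and was skipped. The 33 comprised 17 enzymes of sterol synthesis, 6 genes of SREBP regulation and sterol transport, and 10 enzymes of fatty acid synthesis, desaturation and elongation. The members were named by symbol and not by a cut-off on measured values, but they were chosen with earlier results of these data known. All 33 had a mean signal of at least 6 on the log2 scale over the 8 arrays.

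Expression was measured with Affymetrix whole-transcript arrays in macrophages sorted from the lungs of C57BL/6 mice, in 4 groups of 2 arrays with the cells of 2 mice pooled on each. Knockout mice (KO, CD11c-Cre/PPARg fl/fl) lacked the loxP-flanked part of Pparg, which encodes a lipid-binding nuclear receptor, in cells where the CD11c promoter is active, and control mice (WT, PPARg fl/fl) carried the same flanked alleles without Cre. Precursors of alveolar macrophages were sorted at day 2 after birth and alveolar macrophages at day 11, so the groups were KO day 2, WT day 2, KO day 11 and WT day 11. Lungs were digested with collagenase and DNase in every group. The day 2 sort took CD11c-high cells positive for CD45 and F4/80, with intermediate Siglec-F and CD11b or with low Siglec-F and high CD11b, and the labels do not say which genotype each of these gates served. Day 11 cells were CD45+, Siglec-F+ and high in CD11c and autofluorescence, low in CD11b in WT mice and high in CD11b in KO mice. Deletion and sort gate therefore cannot be told apart at day 11, and the same may hold at day 2.

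Cells make cholesterol from acetyl-CoA through mevalonate, squalene and lanosterol, and they make fatty acids from the same precursor through malonyl-CoA. SREBP-2, the product of Srebf2, mainly drives the sterol enzymes, and SREBP-1, the product of Srebf1, mainly the fatty acid enzymes. Both are made as precursors in the endoplasmic reticulum, where INSIG proteins retain the escort protein SCAP when sterols are plentiful. When sterols run low, SCAP carries SREBP to the Golgi, where it is cut, and the released factor enters the nucleus and binds sterol regulatory elements in promoters, often with NF-Y at CCAAT boxes and SP1 at GC boxes nearby. Alveolar macrophages take up and break down the cholesterol-bearing surfactant of the air spaces.

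Promoter sequence was read for the members from RefSeq (GRCm38.p6, from 250 bases before to 50 bases after each start), which held a promoter for 26 of the 33. The promoters of Hmgcs1, Idi1 and Nsdhl are shown because these are the sterol enzymes with a RefSeq promoter that were called lower in KO cells at both ages, as described below. Idi1 was added to the printed set after its values were seen. Capitals mark the letters of TCACNCNAC, a pattern like the sterol regulatory element, and of CCAAT, each on either strand (a CCAAT on the other strand reads ATTGG). The windows lie at chr13:119690101-119690400 for Hmgcs1, chr13:8885356-8885655 for Idi1 and chrX:72918271-72918570 for Nsdhl, all on the plus strand, and are written 5′ to 3′.
Hmgcs1: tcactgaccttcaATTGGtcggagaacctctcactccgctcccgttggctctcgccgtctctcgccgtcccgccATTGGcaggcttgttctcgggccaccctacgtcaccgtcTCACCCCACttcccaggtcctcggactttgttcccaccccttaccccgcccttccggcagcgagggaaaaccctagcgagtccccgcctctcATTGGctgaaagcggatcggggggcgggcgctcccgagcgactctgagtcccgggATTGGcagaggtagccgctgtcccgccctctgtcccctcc
Idi1: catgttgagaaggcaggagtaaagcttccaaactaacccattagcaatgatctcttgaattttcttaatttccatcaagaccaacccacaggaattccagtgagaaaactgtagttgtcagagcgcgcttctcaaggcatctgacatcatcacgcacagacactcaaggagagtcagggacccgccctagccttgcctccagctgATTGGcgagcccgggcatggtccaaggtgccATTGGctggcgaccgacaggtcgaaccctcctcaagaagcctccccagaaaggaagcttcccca
Nsdhl: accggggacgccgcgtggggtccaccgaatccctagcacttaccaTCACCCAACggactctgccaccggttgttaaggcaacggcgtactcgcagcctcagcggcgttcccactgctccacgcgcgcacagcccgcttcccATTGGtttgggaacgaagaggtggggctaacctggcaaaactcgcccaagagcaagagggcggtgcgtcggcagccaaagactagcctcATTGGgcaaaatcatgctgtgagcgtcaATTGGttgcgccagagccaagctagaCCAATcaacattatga

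The Hmgcs1 promoter holds TCACCCCAC starting 137 bases before the start, and Nsdhl holds TCACCCAAC starting 205 bases before it. The Idi1 window has neither pattern. CCAAT occurs 4 times in the Hmgcs1 window, 4 times in that of Nsdhl and 2 times in that of Idi1.

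Shares over all members are of genes, and a gene counted when any of its promoters held the pattern. The stricter TCACNCCAC was found in 1 of the 26 members with a promoter, Hmgcs1 (3.85%). It was found in 1.42% of the 14724 genes on the array with a RefSeq promoter. The looser TCACNCNAC, which includes the stricter pattern, was found in 2 of 26 (7.69%, against 3.2%). CCAAT was found in 22 of 26 members (84.6%, against 41.9%), including all 14 sterol enzymes with a promoter and 4 of 7 fatty acid genes. GGGCGG, the core of the GC box, was found in 21 of 26 (80.8%, against 53.4%), and the E-box CACGTG in 6 of 26 (23.1%, against 9.57%). These shares describe letters in a 300-base window and no binding was measured.

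Values are log2 signals of 1 probe set per gene, so differences are between groups for the same gene and levels are not compared between genes. Differences are KO minus WT with the standard error (SE) of a limma fit over all 8 arrays (n = 2 per group). A gene was called when limma's p-value, adjusted by Benjamini-Hochberg over all 18782 genes, was under 0.05. The p-values measure the spread between these pools of 2 mice. In bulk samples, fewer cells with a transcript and less of it per cell cannot be told apart.

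Facts of the whole set of arrays bear on the results. Replicate arrays correlated with each other at r = 0.994 to 0.998 over all genes. The Pparg signal differed by -0.31 in day 2 cells (adjusted p = 0.0346) and by 0.19 in day 11 cells (adjusted p = 0.183). Its probes may lie outside the deleted part, so it does not check the deletion. Fabp4, a PPARγ target, was lower in KO arrays by log2 differences of -2.91 and -3.18. Of 12 alveolar macrophage markers measured, of 14 listed, 8 were called lower in KO cells at day 2 and 6 at day 11. Itgax, the gene of CD11c, was called higher at both ages (0.3 and 0.29, adjusted p = 0.012 and 0.0145). Itgax and Siglecf are among the 12 and encode proteins on which the cells were sorted. Over all genes, 11.2% were called lower and 8.86% higher at day 2, and 9.29% and 9.34% at day 11. Marco read 5.93 and 5.93 in KO day 2, against 9.46 and 9.44 in WT day 2, and 6.03 and 5.45 in KO day 11, against 9.50 and 9.52 in WT day 11, while the brighter Car4 and Plet1 were called at neither age. The summed linear signal of the 12, to which bright markers contribute most, was 16268 to 17967 in KO day 2 and 24341 to 24791 in WT day 2 arrays, and of 23008 to 24154 in KO day 11 and 32491 to 32789 in WT day 11 arrays. Of 6 monocyte markers measured, 5 were called higher at day 2 and 3 at day 11. Their sum was 5185 to 5496 in KO day 2, against 745 to 788 in WT day 2, and 2229 to 2442 in KO day 11, against 289 to 294 in WT day 11. Without Itgam, the gene of CD11b, on which the cells were sorted, the sums were 3427 to 3476 in KO day 2, against 524 to 554 in WT day 2, and 584 to 611 in KO day 11, against 210 to 219 in WT day 11. The first KO day 2 array stood apart in interferon genes, whose summed signal over 9 of 10 genes was 8129 there and 1480 on the other KO day 2 array, against 733 to 986 in WT day 2. Day 2 counts are therefore also given without that array.

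The sterol branch was lower in KO cells at both ages. At day 2, 7 of 17 sterol genes were called lower and 0 higher, where 11.2% of all genes were called lower and 8.86% higher. At day 11, 10 of 17 were called lower and 0 higher, where 9.29% of all genes were called lower and 9.34% higher. The median difference was -0.41 at day 2 and -0.44 at day 11, against -0.03 and -0.002 over all genes. The sign was negative for 16 of 17 at day 2 and for 15 of 17 at day 11, against 56.9% and 50.5% of all genes. In all, 12 of the 17 were called lower at 1 age or more. Over all 18782 genes, 2109 were called lower at day 2, 1745 at day 11 and 1134 at both, so that share lies above the 11.2% of day 2. Called lower at both ages were 5 of the 17 (Hmgcs1, Idi1, Fdps, Sqle and Nsdhl), against 6.04% of all genes.

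The groups of arrays separated for more genes than were called. Both KO arrays lay below both WT arrays for 15 of 17 sterol genes at day 2, which was so for 34.2% of all genes, and for 12 of 17 at day 11, against 28.7% of all genes. The same 12 were separated at both ages, against 17.5% of all genes. As the plot of sterol genes by array shows, the separation was widest for Hmgcs1 and Sqle and absent for Mvk and Tm7sf2 at day 2.

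**Figure D1:**
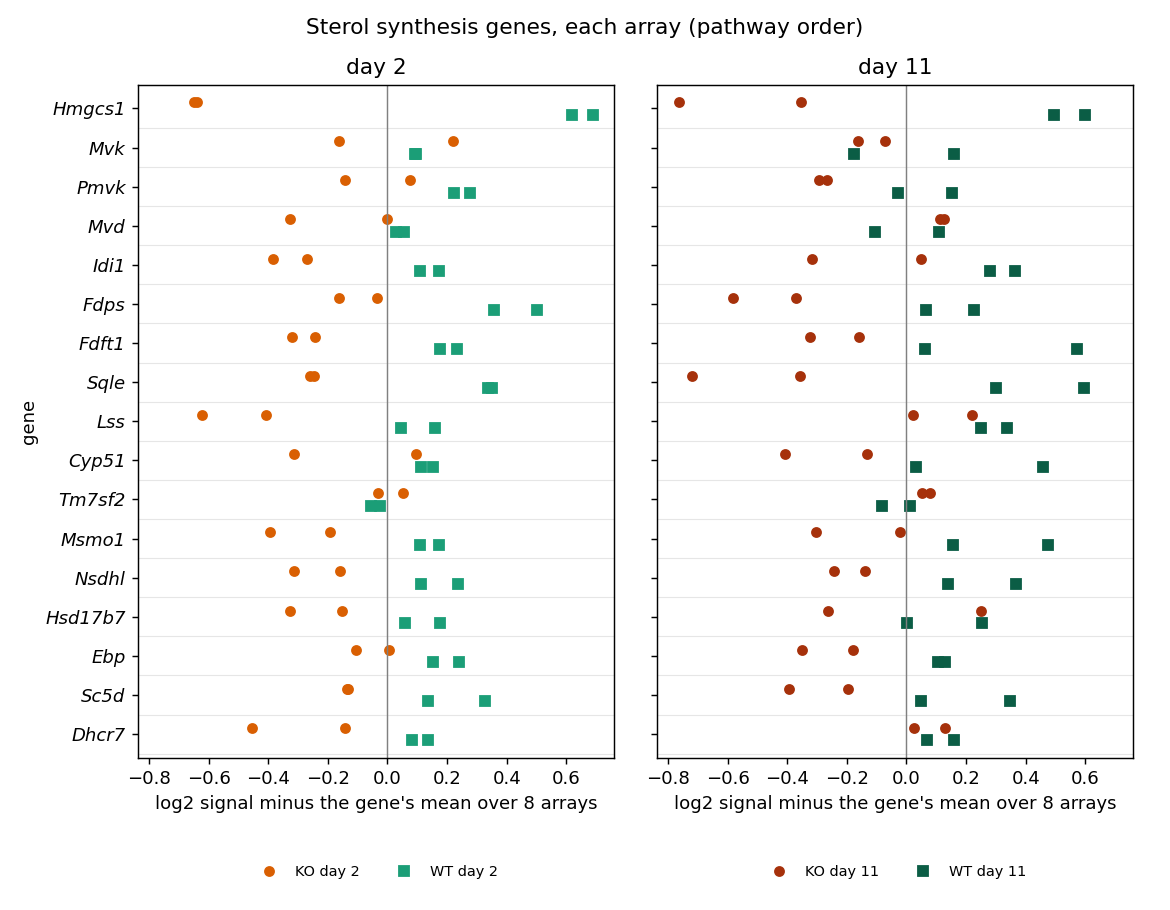
Log2 signal of the 17 sterol synthesis genes in pathway order on each array, minus that gene's mean over the 8 arrays, at day 2 (left) and day 11 (right); circles are KO arrays and squares WT arrays. Both KO arrays lie left of both WT arrays for 15 of 17 genes at day 2 and for 12 of 17 at day 11.

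Hmgcs1, which joins acetyl-CoA and acetoacetyl-CoA to HMG-CoA at the entry to the mevalonate route, had the largest difference of all 33 members at each age. Hmgcs1 (probe set 10412466) read 8.32 and 8.34 in KO day 2 arrays, against 9.59 and 9.66 in WT day 2 arrays. It read 8.21 and 8.62 in KO day 11 arrays, against 9.57 and 9.47 in WT day 11 arrays. All 4 KO values lay below all 4 WT values. Hmgcs1 was 2.46-fold lower in KO cells at day 2 (-1.30 ± 0.12 on the log2 scale, adjusted p = 0.00026). The day 11 difference was -1.11 ± 0.12 (adjusted p = 0.000569), and both calls were kept in all 15 alternative settings tried.

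The next enzymes, which turn mevalonate into the 5-carbon isoprene units, differed little or unevenly. Mvk, mevalonate kinase, read 7.29 and 7.68 in KO day 2 arrays, against 7.55 and 7.55 in WT day 2, and 7.30 and 7.39 in KO day 11 arrays, against 7.28 and 7.62 in WT day 11. Its groups overlapped at both ages (-0.07 and -0.11, adjusted p = 0.814 and 0.708). Pmvk, phosphomevalonate kinase, read 6.93 and 6.71 in KO day 2, against 7.08 and 7.13 in WT day 2, and 6.56 and 6.58 in KO day 11, against 6.83 and 7.005 in WT day 11. Its groups did not overlap at either age, and it was called lower at day 11 (-0.34 ± 0.09, adjusted p = 0.0367) and missed the threshold at day 2 (-0.28, adjusted p = 0.0705). Mvd, the decarboxylase that ends this step, was not called at either age (-0.21 and 0.12, adjusted p = 0.274 and 0.584).

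Idi1 and Fdps, which isomerise the isoprene unit and build farnesyl diphosphate from it, were called lower at both ages. Idi1 (probe set 10403413) read 8.68 and 8.79 in KO day 2, against 9.17 and 9.23 in WT day 2, and 8.75 and 9.11 in KO day 11, against 9.34 and 9.43 in WT day 11. The differences were -0.47 ± 0.12 and -0.46 ± 0.12 (adjusted p = 0.0247 and 0.0289), and a second probe set gave -0.49 and -0.51. Fdps (probe set 10499483) read 8.50 and 8.38 in KO day 2, against 8.90 and 9.04 in WT day 2, and 7.96 and 8.17 in KO day 11, against 8.61 and 8.77 in WT day 11. No KO value of Fdps reached a WT value of the same age. The differences of Fdps were -0.53 ± 0.10 (1.44-fold, adjusted p = 0.00783) and -0.62 ± 0.10 (1.54-fold, adjusted p = 0.00379).

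The 3 enzymes that make and close the squalene chain were each lower in KO cells at 1 age or both. Fdft1, squalene synthase, read 9.20 and 9.28 in KO day 2, against 9.70 and 9.75 in WT day 2, and 9.20 and 9.36 in KO day 11, against 9.58 and 10.09 in WT day 11. It was called at day 11 (-0.56 ± 0.15, adjusted p = 0.0356) and was just outside the threshold at day 2 (-0.49, adjusted p = 0.0565). Sqle, squalene epoxidase, an oxygen-using and rate-limiting enzyme, read 7.89 and 7.88 in KO day 2, against 8.49 and 8.48 in WT day 2, and 7.42 and 7.79 in KO day 11, against 8.44 and 8.74 in WT day 11. Its differences were -0.60 ± 0.13 (1.51-fold, adjusted p = 0.0149) at day 2 and -0.99 ± 0.13 (1.98-fold, adjusted p = 0.00142) at day 11.

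Lss, which folds squalene epoxide into lanosterol, was called lower at day 2. Lss (probe set 10364194) read 6.83 and 7.05 in KO day 2, against 7.61 and 7.50 in WT day 2, and 7.47 and 7.67 in KO day 11, against 7.70 and 7.79 in WT day 11. The KO minus WT difference was -0.62 ± 0.10 in day 2 cells (adjusted p = 0.00354), and the day 11 difference of -0.17 was not called (adjusted p = 0.313). The change of that difference with age, tested as the interaction of genotype and age, did not pass (0.44 ± 0.14, adjusted p = 0.166).

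Of the 8 enzymes that convert lanosterol to cholesterol, Nsdhl, Msmo1, Ebp, Sc5d and Dhcr7 were each called lower at 1 age or both. Nsdhl, a sterol dehydrogenase that acts on the C4 carbon (probe set 10600082), was called at both ages and read 8.94 and 9.09 in KO day 2, against 9.36 and 9.49 in WT day 2. It read 9.01 and 9.11 in KO day 11, against 9.39 and 9.62 in WT day 11 (differences -0.41 ± 0.10 and -0.44 ± 0.10, adjusted p = 0.022 and 0.0163). Msmo1, the C4 methyl oxidase that precedes it, read 9.54 and 9.34 in KO day 2, against 9.84 and 9.91 in WT day 2, and 9.43 and 9.71 in KO day 11, against 9.89 and 10.2 in WT day 11. Msmo1 was called at day 11 (-0.48 ± 0.13, adjusted p = 0.0417) and not at day 2 (-0.43, adjusted p = 0.0564).

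Ebp and Sc5d, which shift and add a double bond in the sterol ring, were called at day 11. Ebp read 8.74 and 8.63 in KO day 2, against 8.97 and 8.89 in WT day 2, and 8.56 and 8.39 in KO day 11, against 8.86 and 8.84 in WT day 11 (-0.25, adjusted p = 0.0689, and -0.38 ± 0.08, adjusted p = 0.0129). Sc5d read 7.85 and 7.86 in KO day 2, against 8.13 and 8.32 in WT day 2, and 7.60 and 7.80 in KO day 11, against 8.04 and 8.34 in WT day 11 (-0.37, adjusted p = 0.0665, and -0.49 ± 0.12, adjusted p = 0.0228). KO and WT arrays of neither gene overlapped at either age. Dhcr7, the reductase that yields cholesterol, read 8.33 and 8.65 in KO day 2, against 8.92 and 8.87 in WT day 2, and 8.92 and 8.81 in KO day 11, against 8.86 and 8.95 in WT day 11. Its call at day 2 (-0.41 ± 0.10, adjusted p = 0.0291) stood beside overlapping groups at day 11 (-0.04, adjusted p = 0.879), and the change with age did not pass (interaction adjusted p = 0.26).

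The other 3 of these late enzymes were called at neither age. Cyp51, the lanosterol demethylase, had negative differences with separate groups at both ages (-0.24 and -0.52, adjusted p = 0.408 and 0.0857). Hsd17b7, a sterol ketoreductase, differed by -0.36 and -0.14 (adjusted p = 0.186 and 0.678). Tm7sf2, a sterol C14 reductase, was the member with a positive difference at both ages among the sterol genes (0.05 and 0.10, adjusted p = 0.686 and 0.391).

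Stard4, which carries cholesterol between membranes inside the cell and is itself controlled by SREBP-2, moved with the sterol enzymes. Stard4 (probe set 10458033) read 7.21 and 7.32 in KO day 2, against 7.69 and 7.72 in WT day 2, and 7.22 and 7.44 in KO day 11, against 7.71 and 7.75 in WT day 11. All 4 KO values lay below all 4 WT values, with differences of -0.44 ± 0.09 and -0.40 ± 0.09 (adjusted p = 0.00908 and 0.0136).

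Of the 5 transcripts of the SREBP machinery, 2 (Srebf1 and Insig1) were called lower at day 2 and 1 (Insig2) higher at day 11. Over all genes, 11.2% were called lower at day 2 and 9.34% higher at day 11. Srebf2 read 9.70 and 9.77 in KO day 2, against 9.78 and 9.84 in WT day 2, and 9.50 and 9.71 in KO day 11, against 9.79 and 9.84 in WT day 11. It was not called at either age, with differences of -0.07 (95% interval -0.26 to 0.12, adjusted p = 0.615) and -0.20 (-0.40 to -0.01, adjusted p = 0.143). Scap was not called either and read 8.51 and 8.77 in KO day 2, against 8.72 and 8.84 in WT day 2, and 8.71 and 8.74 in KO day 11, against 8.81 and 8.77 in WT day 11 (-0.14 and -0.07, adjusted p = 0.358 and 0.718). A second, dimmer Scap probe set differed by 0.31 and -0.01. The arrays report transcripts and not the cut, nuclear form of SREBP.

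Srebf1 was lower in KO cells at day 2 and read 7.65 and 7.75 there, against 8.09 and 8.03 in WT day 2. At day 11 Srebf1 read 7.85 and 7.99 in KO, against 7.95 and 8.04 in WT, with overlapping groups. The differences were -0.36 ± 0.08 (adjusted p = 0.0139) and -0.08 (adjusted p = 0.605), and their change with age did not pass (interaction adjusted p = 0.247).

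The 2 INSIG genes did not move together. Insig1, which is itself induced by SREBP, read 9.47 and 9.44 in KO day 2, against 9.87 and 9.88 in WT day 2, and 9.47 and 9.66 in KO day 11, against 9.75 and 10.0 in WT day 11. Its difference was -0.41 ± 0.10 at day 2 (adjusted p = 0.0247) and -0.32 at day 11 (adjusted p = 0.0715). Insig2 (probe set 10357280) read 7.75 and 7.78 in KO day 2, against 7.65 and 7.79 in WT day 2, and 8.13 and 8.07 in KO day 11, against 7.63 and 7.67 in WT day 11. Insig2 was higher in KO cells at day 11 (0.45 ± 0.07, 1.36-fold, adjusted p = 0.00311), while at day 2 its groups overlapped (0.04, adjusted p = 0.735). The change of the Insig2 difference with age had the lowest interaction p among the members and did not pass (0.40 ± 0.10, adjusted p = 0.0798).

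**Figure D2:**
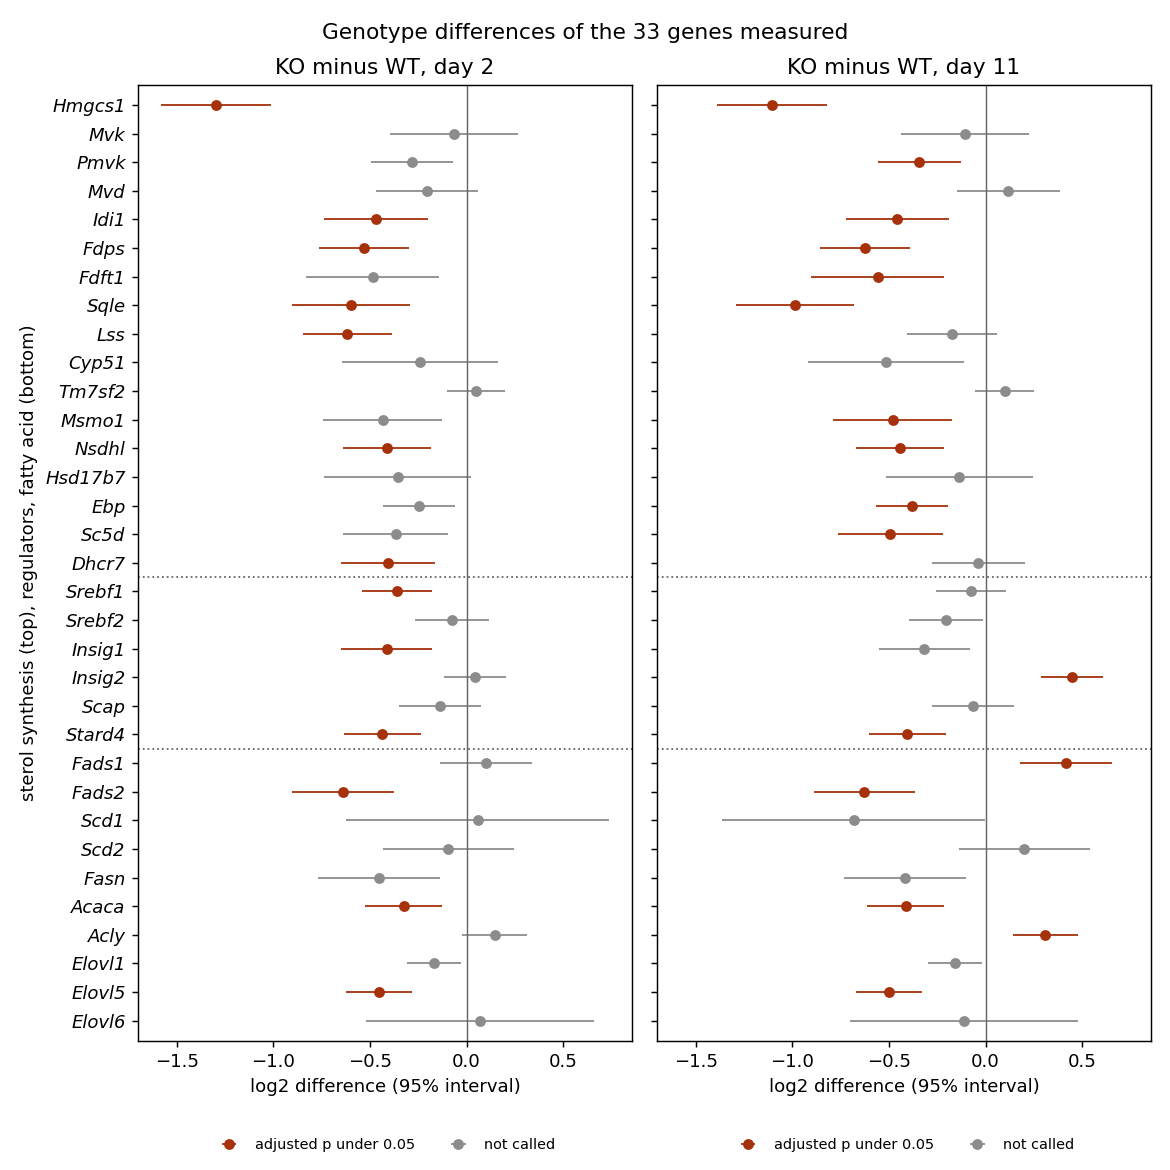
Log2 difference KO minus WT of the 33 genes at day 2 (left) and day 11 (right), with 95% intervals from the limma fit; red points have an adjusted p under 0.05, and dotted lines part sterol synthesis, regulators and fatty acid genes. All 13 called differences at day 2 are negative, while at day 11, 14 are negative and those of Insig2, Fads1 and Acly are positive.

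The fatty acid branch was mixed. At day 2, 3 of 10 genes were called lower (11.2% of all genes) and 0 higher (8.86% of all genes). At day 11, 3 of 10 were called lower (9.29% of all genes) and 2 higher (9.34% of all genes). The median differences were -0.13 and -0.29. The 3 lower ones were Fads2, Acaca and Elovl5 at both ages, and the 2 higher ones at day 11 were Fads1 and Acly. Both KO arrays lay below both WT arrays for 5 of 10 at day 2, against 34.2% of all genes, and for 6 of 10 at day 11, against 28.7%.

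The enzymes that lead from citrate to palmitate did not move one way. Acly, which splits citrate into cytosolic acetyl-CoA for both fatty acids and sterols, read 10.3 and 10.4 in KO day 2, against 10.2 and 10.2 in WT day 2, and 10.5 and 10.5 in KO day 11, against 10.2 and 10.1 in WT day 11. It was higher in KO cells at day 11 (0.31 ± 0.07, adjusted p = 0.0198), with 0.15 (adjusted p = 0.218) at day 2. Acaca, the acetyl-CoA carboxylase that commits carbon to fatty acids (probe set 10394538), read 7.70 and 7.77 in KO day 2, against 8.07 and 8.05 in WT day 2, and 7.51 and 7.67 in KO day 11, against 7.91 and 8.10 in WT day 11. The differences of Acaca were -0.33 ± 0.09 and -0.41 ± 0.09 (adjusted p = 0.0329 and 0.0124), with -0.11 and -0.31 from a second, dimmer probe set. Both calls were lost when the 2 probe sets were averaged (adjusted p = 0.257 and 0.0706). Fasn, which joins malonyl units into palmitate, lay near the threshold at both ages. It read 8.36 and 8.50 in KO day 2, against 8.79 and 8.97 in WT day 2, and 8.02 and 8.38 in KO day 11, against 8.50 and 8.74 in WT day 11. Its arrays separated at both ages without a call (-0.45 and -0.42, adjusted p = 0.0522 and 0.0737), and it was called lower at both when genes with a mean under 6 were left out (adjusted p = 0.0371 and 0.0499).

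Fads1 and Fads2, which lie near each other on chromosome 19 and add double bonds in the making of polyunsaturated fatty acids, differed in opposite directions at day 11. Fads2 (probe set 10465895) read 5.97 and 6.14 in KO day 2, against 6.75 and 6.64 in WT day 2, and 5.32 and 5.58 in KO day 11, against 5.97 and 6.18 in WT day 11. The differences of Fads2 were -0.64 ± 0.11 and -0.63 ± 0.11 (adjusted p = 0.00577 and 0.00671). Fads1 read 8.29 and 8.28 in KO day 2, against 8.17 and 8.19 in WT day 2, and 8.21 and 8.29 in KO day 11, against 7.67 and 7.997 in WT day 11. Both KO arrays lay above both WT arrays of Fads1 at each age, and the gene was called higher at day 11 (0.42 ± 0.10, adjusted p = 0.0259, against 0.10, adjusted p = 0.577, at day 2).

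Elovl5, which lengthens polyunsaturated chains (probe set 10587284), was lower in KO cells at both ages and read 9.89 and 10.1 in KO day 2, against 10.4 and 10.4 in WT day 2. It read 9.94 and 10.0 in KO day 11, against 10.5 and 10.5 in WT day 11. The differences were -0.45 ± 0.07 (1.37-fold, adjusted p = 0.00341) and -0.50 ± 0.07 (1.41-fold, adjusted p = 0.0023). The calls of Elovl5 at both ages were kept in all 15 alternative settings tried. Elovl1, an elongase of saturated very long chains, was lower without a call (-0.17 and -0.16, adjusted p = 0.0912 and 0.117).

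The stearoyl-CoA desaturases and Elovl6, which set the balance of saturated and monounsaturated chains, were called at neither age. Scd1 read 5.54 and 6.25 in KO day 2, against 5.70 and 5.97 in WT day 2, and 5.45 and 6.27 in KO day 11, against 6.44 and 6.65 in WT day 11. The 2 arrays of each KO group were far apart, so the day 11 difference of -0.68 ± 0.29 did not pass (adjusted p = 0.172). Scd2 differed by -0.09 and 0.20 (adjusted p = 0.734 and 0.445), and Elovl6 by 0.07 and -0.11 (adjusted p = 0.895 and 0.847). Elovl6 read 7.73 and 8.59 in the 2 KO day 11 arrays, which span both WT day 11 values.

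**Figure D3:**
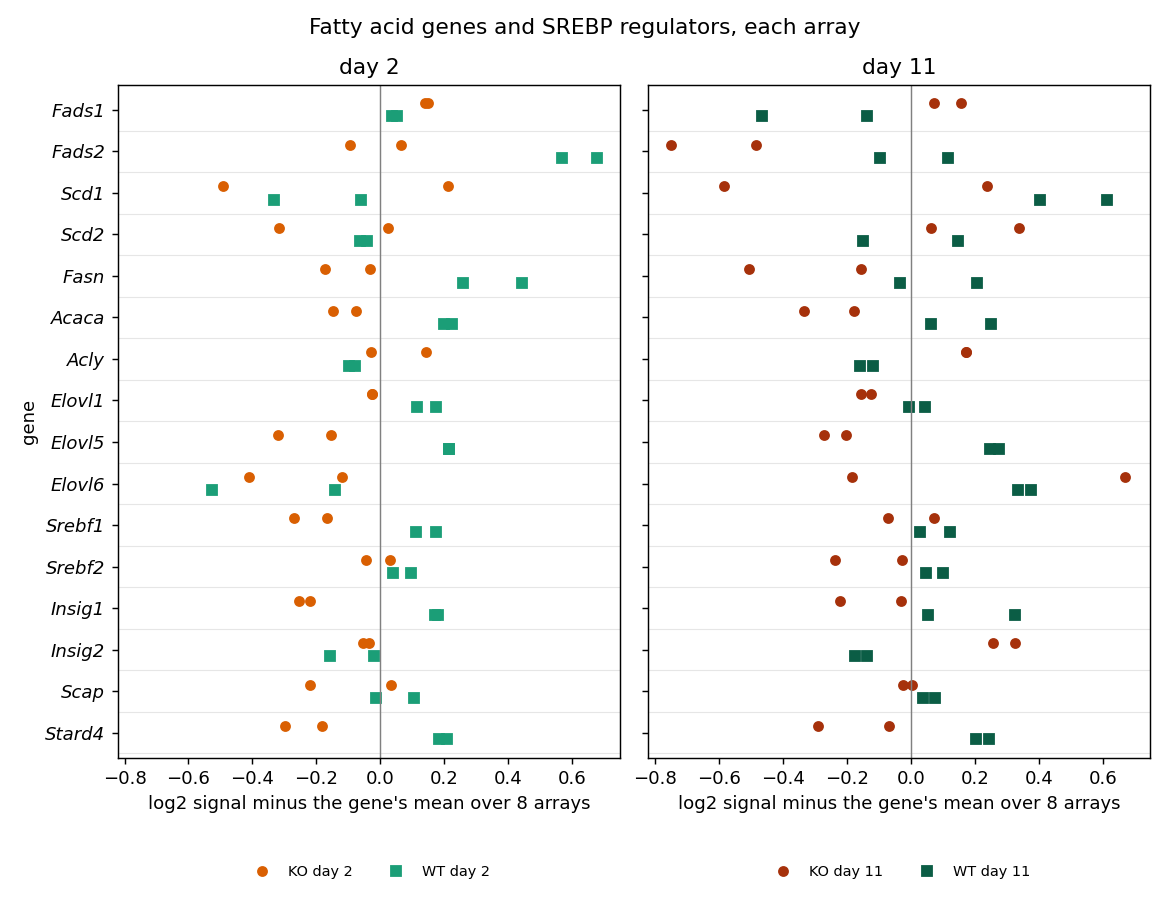
Log2 signal of the 10 fatty acid genes and the 6 regulators and transport genes on each array, minus that gene's mean over the 8 arrays, at day 2 (left) and day 11 (right); circles are KO arrays and squares WT arrays. KO arrays lie left of WT arrays at both ages for Fads2, Fasn, Acaca, Elovl1, Elovl5, Srebf2, Insig1 and Stard4. They lie right of them at day 11 for Fads1, Acly and Insig2.

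Over all 33 members, 13 were called lower and 0 higher at day 2, where 11.2% and 8.86% of all genes were. At day 11, 14 were called lower and 3 higher, where 9.29% and 9.34% of all genes were, so the 3 higher ones are near the share over all genes. The 9 called lower at both ages were Hmgcs1, Idi1, Fdps, Sqle, Nsdhl, Stard4, Fads2, Acaca and Elovl5. Counts near the threshold moved with single arrays, and so did the number of calls over all genes. Counts from fits with 1 array left out are therefore not to be read against the shares above, which come from all 8 arrays. Sterol genes called lower at day 2 numbered 7 with all arrays, 2 without the second WT day 2 array, 3 without the first, 5 without the first KO day 2 array (the one high in interferon genes) and 10 without either WT day 11 array. The calls of Idi1, Nsdhl, Dhcr7, Srebf1, Insig1 and Acaca at day 2 were lost without that KO array, and Pmvk was gained (-0.39, adjusted p = 0.0316). At day 11 they numbered 10 with all arrays, 3 without the second WT day 11 array, 4 without the first KO day 11 array and 6 without either WT day 2 array. Fatty acid genes called lower numbered 2 at day 2 without any single day 2 array. At day 11 the 3 lower ones became 1 without the second WT day 11 array, 2 without the first KO day 11 array and 5 without the second. The calls of Fads1 and Acly as higher at day 11 were kept in 3 and in 4 of 8 fits with 1 array left out. Day 2 differences kept in every setting were those of Hmgcs1, Lss, Fads2 and Elovl5, and day 11 differences those of Hmgcs1, Fdps, Sqle, Insig2 and Elovl5.

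The second question was whether the genes changed between day 2 and day 11 in each genotype. In WT cells, 0 of 17 sterol genes were called (1 at an unadjusted p under 0.05) and the median difference, day 11 minus day 2, was 0.005. Of the 33 members, 1 was called in WT cells, where 5.3% of all genes were called, and that was Fads2, which fell by 0.61 ± 0.11 (adjusted p = 0.0238, kept in 4 of 8 fits with 1 array left out). In KO cells, 5 of 33 were called, where 15.5% of all genes were called. Fdps and Fads2 were lower at day 11 (-0.38 and -0.60, adjusted p = 0.042 and 0.0112), and Lss, Dhcr7 and Insig2 were higher (0.64, 0.37 and 0.34, adjusted p = 0.00541, 0.0487 and 0.016). The calls of Fdps and Dhcr7 were each kept in 1 of 8 fits with 1 array left out, and that of Lss in all 8. These age comparisons share their arrays with the genotype comparisons.

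The difference between the 2 genotype effects passed for 0 of 33 members by limma's interaction term, where 3.27% of all genes passed. At an unadjusted p under 0.05 there were 4, namely Lss, Dhcr7, Srebf1 and Insig2. All 4 had a higher KO minus WT difference at day 11 than at day 2. Without the second KO day 2 array, Dhcr7 passed (adjusted p = 0.0463). A gene called at 1 age and not at the other, such as Lss, Dhcr7 or Fdft1, was therefore not shown to differ between ages.

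Sterol genes also varied together between arrays of one group. Their median, relative to each gene's mean, was -0.31 and -0.15 on the KO day 2 arrays, against 0.14 and 0.17 on the WT day 2 arrays, and -0.29 and -0.13 on the KO day 11 arrays, against 0.07 and 0.34 on the WT day 11 arrays. Fatty acid medians were -0.16 and 0.0001 in KO day 2, against 0.11 and 0.08 in WT day 2, and -0.23 and 0.02 in KO day 11, against 0.0046 and 0.18 in WT day 11. The sterol medians of KO and WT arrays did not overlap at either age, and the fatty acid medians overlapped at day 11. Sterol genes lower on the array numbered 1 than on that numbered 2 were 12 of 17 in KO day 2, against 54.4% of all genes, and 11 of 17 in WT day 2, against 50.4%. They were 13 of 17 in KO day 11, against 52.6%, and 15 of 17 in WT day 11, against 48.5%. The direction was thus the same in all 4 groups for these genes, and it was not particular to them. The regulators were lower on the first array for 5 of 6 in every group. Fatty acid genes were lower there for 8 of 10 in KO day 2, 5 of 10 in WT day 2, 9 of 10 in KO day 11 and 8 of 10 in WT day 11. The genes on an array share that array's cells and RNA, so these counts describe arrays and are not independent observations.

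Other gene lists also differed between KO and WT cells, in either direction. Their counts are to be read against all genes, of which 11.2% were called lower and 8.86% higher at day 2. At day 11 these shares were 9.29% and 9.34%. All 12 cell cycle genes measured, of 13 listed, were called lower in KO cells at both ages, with medians of -0.80 and -1.21. Their summed linear signal was 6005 to 6411 in KO day 2, against 10402 to 11180 in WT day 2, and 3615 to 4605 in KO day 11, against 9036 to 9428 in WT day 11. At day 11 the cell cycle median was higher on the first array in KO (8.53 and 8.18) and WT (9.73 and 9.66). At day 2 it was lower on the first array in KO (8.76 and 8.78) and WT (9.74 and 9.78). The sterol median was lower on the first array in all 4 groups. Markers of alveolar epithelium, whose type 2 cells make lipid for surfactant, summed over 12 genes to 2531 to 3083 in KO day 2, against 2158 to 2181 in WT day 2, and to 2058 to 2106 in KO day 11, against 1859 to 1876 in WT day 11. Their Sftpc, which defines type 2 cells, read 8.57 and 9.27 in KO day 2, against 8.74 and 8.54 in WT day 2, and 7.84 and 7.42 in KO day 11, against 7.97 and 8.54 in WT day 11. Epithelial markers were called higher in KO cells for 2 of 12 and lower for 1 at day 2. At day 11, 1 was called higher and 2 lower. Of 6 interstitial macrophage markers, 6 were called higher in KO cells at day 2 and 4 at day 11. Dendritic cell markers were called higher for 4 of 6 at day 2 and 2 of 6 at day 11, and neutrophil markers for 6 of 7 and 2 of 7. The part of these lists in the sterol and fatty acid differences was not tested.

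**Figure D4:**
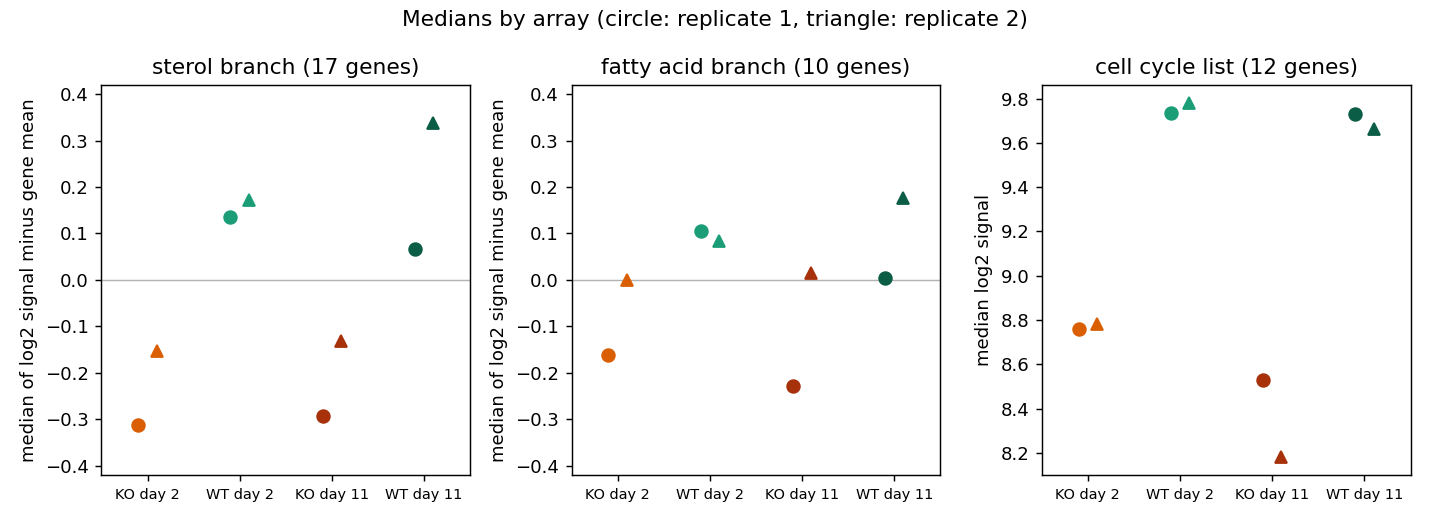
Median over the 17 sterol genes (left) and the 10 fatty acid genes (middle) of log2 signal minus each gene's mean over 8 arrays, and median log2 signal of the 12 cell cycle genes (right), for each array of KO and WT at day 2 and day 11; circles are replicate 1 and triangles replicate 2. The sterol medians of KO arrays lie between -0.31 and -0.13 and those of WT arrays between 0.07 and 0.34, and the cell cycle medians also lie lower on every KO array than on any WT array.

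Genes around the pathway that are not members were counted in 3 wider lists, to be read against the same shares over all genes (11.2% lower and 8.86% higher at day 2, 9.29% lower and 9.34% higher at day 11). Of 13 sterol genes measured of 18 listed, 4 were called lower and 0 higher at day 2, and 4 lower and 2 higher at day 11. Acat1, the mitochondrial acetoacetyl-CoA thiolase, was lower at both ages (-0.68 ± 0.09 and -0.54 ± 0.09, adjusted p = 0.00108 and 0.00378). Cyb5a, a cytochrome b5 that passes electrons to sterol and fatty acyl enzymes, was called lower at day 11 (-0.53 ± 0.09, adjusted p = 0.00373) and not at day 2 (-0.28, adjusted p = 0.053). Lbr, a nuclear envelope protein with the same sterol C14 reductase activity as Tm7sf2, read 7.54 and 7.33 in KO day 2, against 7.24 and 7.55 in WT day 2, and 5.95 and 5.76 in KO day 11, against 7.63 and 7.13 in WT day 11. Lbr was thus close in both genotypes at day 2 (0.04, adjusted p = 0.914) and lower in KO cells at day 11 (-1.53 ± 0.17, adjusted p = 0.00065), while Tm7sf2 was called at neither age.

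Of 15 SREBP control genes measured of 18 listed, 6 were called lower and 1 higher at day 2, and 2 lower and 3 higher at day 11. Rnf145, a ubiquitin ligase that acts on SCAP in mouse liver, was higher in KO cells at both ages and read 8.29 and 8.42 in KO day 2, against 7.57 and 7.67 in WT day 2, and 8.12 and 7.99 in KO day 11, against 7.61 and 7.51 in WT day 11 (0.74 ± 0.08 and 0.49 ± 0.08, adjusted p = 0.000543 and 0.00409). Lpin1, a phosphatidate phosphatase that also restrains nuclear SREBP, was lower at day 2 (-0.90 ± 0.16, adjusted p = 0.0055) and was not called at day 11 (-0.43, adjusted p = 0.113). Nfya, a subunit of NF-Y, was lower at day 2 (-0.45 ± 0.08, adjusted p = 0.00638) and was not called at day 11 (-0.10, adjusted p = 0.5).

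Of 28 further fatty acid genes measured of 34 listed, 5 were called higher and 5 lower at day 2, and 5 higher and 4 lower at day 11, out of 28 at each age. The 3 largest called differences were all higher in KO cells. Elovl7, an elongase of very long chains, read 7.72 and 7.94 in KO day 2, against 5.76 and 5.75 in WT day 2, and 8.78 and 9.07 in KO day 11, against 4.94 and 5.00 in WT day 11. Its differences of 2.08 ± 0.11 and 3.96 ± 0.11 (adjusted p = 1.67e-05 and 1.64e-06) ran opposite to that of Elovl5. Mid1ip1, which promotes the assembly of acetyl-CoA carboxylase into active filaments, was higher at both ages (0.54 ± 0.09 and 1.32 ± 0.09, adjusted p = 0.00405 and 5.96e-05). Hacd4, a hydroxyacyl-CoA dehydratase of chain elongation, was also higher at both (1.09 ± 0.08 and 0.59 ± 0.08, adjusted p = 6.04e-05 and 0.00116).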

How the data were processed

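RNA of sorted lung macrophages was hybridised to 8 Affymetrix arrays, 2 per group. The authors deposited 1 log2 value per probe set and array, which per the submitters' processing notes came from RMA (R 2.15.2). That method brings the arrays to a common distribution (the median was 5.35 on every array), so a shift of all genes cannot be seen. Of 28874 probe sets, the platform annotation gave 21159 a single symbol, 1881 several and 5834 none; only those with a single symbol were used. Where a gene had several, which held for 1368 genes, the probe set with the highest mean was kept, leaving 18782 genes.

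Limma 3.58.1 in R 4.3.3 fitted 1 mean per group over all 8 arrays (4 residual and 3.77 prior degrees of freedom). Contrasts were KO against WT at each age, day 11 against day 2 in each genotype, and the interaction. P-values were adjusted by Benjamini-Hochberg over all genes, and calls needed an adjusted p under 0.05. The number of arrays limits the precision. Replicate numbers were not taken to pair the samples, since the labels do not say that they do. The correlation of same-numbered arrays' deviations from their group means ran from -0.151 to 0.319 over pairs of groups. It was taken over genes with a mean of at least 6. It was highest for WT day 2 with KO day 2 (0.319) and for KO day 2 with KO day 11 (0.256). Whether the numbers mark a shared batch was not tested, and the sterol genes and the regulators each shared a direction by number in all 4 groups.

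The alternatives were leaving out each array, a replicate block, a trend and robust prior, leaving out genes with a mean under 6, averaging probe sets, 2 further normalizations and fits to only the 4 arrays compared. The members, lists and tests were chosen with earlier results of these data known. Every member is accounted for. Full values by array are given for members called in a genotype comparison or the interaction and for the SREBP regulators, and from each wider list the 3 called genes with the largest difference are named. Summed marker levels are sums of linear signals. Promoters came from RefSeq (GRCm38.p6) and motifs were searched on both strands. Plots were drawn with matplotlib 3.10.9.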

Additional observations from a re-analysis of the deposited data

Results flagged for a closer look

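Elovl7 is listed because its genotype difference changed with age: by limma's interaction term the KO minus WT difference was 1.88 ± 0.15 larger at day 11 than at day 2 (adjusted p = 0.00115, from 0.000203 to 0.013 over 14 alternatives). For Lbr the change was -1.56 ± 0.25 (adjusted p = 0.017, passing in 12 of 14 alternatives, up to 0.0842). Mid1ip1 changed by 0.77 ± 0.13 (adjusted p = 0.0214, passing in 9 of 14, up to 0.0993) and Fads3, a relative of Fads1 and Fads2, by -0.76 ± 0.12 (adjusted p = 0.0195, passing in 10 of 14, up to 0.0993). Acss2, which makes acetyl-CoA from acetate, changed by -0.61 ± 0.11 (adjusted p = 0.0322, passing in 7 of 13, up to 0.124), with 0.42 at day 2 (adjusted p = 0.00759) and -0.18 at day 11 (adjusted p = 0.175).

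Among the members, Mvd is listed because both KO arrays lay below both WT arrays at day 2 and above them at day 11. Mvd read 7.80 and 8.13 in KO day 2, against 8.19 and 8.16 in WT day 2. It read 8.259 and 8.244 in KO day 11, against 8.025 and 8.242 in WT day 11. The nearest values were thus 8.13 and 8.16 at day 2 and 8.244 and 8.242 at day 11, which is almost a tie. The change of its difference with age was 0.32 ± 0.16 and did not pass (adjusted p = 0.37). The causes of these patterns were not tested.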

How the results depend on the processing

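Of 36 called differences of members, 0 changed sign in any setting and 10 kept their call in all. With 1 array left out, 200 calls were kept and 88 lost. Leaving out 1 array at a time, all genes called ranged from 2223 to 3605 at day 2, from 2059 to 3760 at day 11, from 233 to 1292 between ages in WT, from 1541 to 2985 in KO and from 197 to 942 for the interaction. Sterol genes called lower ranged from 2 to 10 at day 2 and from 3 to 11 at day 11, with 0 higher throughout. Fatty acid genes called lower ranged from 2 to 4 and from 1 to 5, and those called higher from 0 to 0 and from 0 to 2. Members called ranged from 0 to 2 between ages in WT, from 2 to 6 in KO and from 0 to 1 for the interaction.

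At day 2, 12 sterol genes were called lower with arrays centred on the median and 12 with genes of a mean under 6 left out, against 7, and 5 fatty acid genes with a trend and robust prior, against 3. Fits to only the 4 arrays compared called 1 fatty acid gene higher at day 11, against 2. They called 1581 genes and 3 members between ages in WT, against 996 and 1, and 1466 genes and 2 members in KO, against 2915 and 5; such fits have fewer arrays for the spread. The replicate block called 3692 genes at day 2, 3415 at day 11, 975 and 2823 between ages in WT and KO and 558 for the interaction, with 10 sterol genes lower at each age and 4 and 5 fatty acid genes lower, against 3 at each age. It called Fasn lower at both ages (adjusted p = 0.0056 and 0.00838).

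The differences that changed sign were all uncalled. With 1 array left out, Mvk ranged from -0.257 to 0.125 at day 2 and from -0.277 to 0.061 at day 11, Insig2 from -0.0245 to 0.113, Scd1 from -0.295 to 0.409, Scd2 from -0.265 to 0.078 and Elovl6 from -0.122 to 0.261 at day 2. The values at day 11 ranged from -0.392 to 0.122 for Hsd17b7, from -0.0895 to 0.0145 for Dhcr7 and from -0.538 to 0.315 for Elovl6. Singly, Scd1 was -0.295 and -0.078, Elovl6 -0.076 and -0.122 at day 2, and Dhcr7 0.0145 and 0.008 at day 11. Averaging probe sets turned Scap at day 2 to 0.0878. The cause of these changes was not tested beyond what the settings themselves alter.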
